A study of Mus musculus with 42 samples.

Results

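The Zfp genes of mouse liver were followed here, meaning genes whose symbol is exactly Zfp followed by digits. Of the 13031 genes listed for lean mice, 299 carried such a symbol, and 242 of them averaged 50 or more normalized counts across the 14 lean livers and were taken as members. All 242 members were listed and passed the filter on low values in every one of the 6 tables. At the threshold, Zfp334 lay just outside with a mean of 49.9 and Zfp52 lay just inside with a mean of 50.2.

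The livers came from 42 male C57BL/6J mice, 7 in each of 6 groups, with 1 RNA-seq library per mouse. ChemR23, the product of Cmklr1, is a receptor for the lipid mediator resolvin E1 (RvE1). ChemR23 knockout (KO) mice made with CRISPR/Cas9 were compared with wildtype (WT) littermates. WT lean and KO lean mice ate a control diet with 10% of energy from fat. WT obese and KO obese mice ate a diet with 60% of energy from fat, begun at 6 weeks of age, and both diets lasted 15 weeks. WT obese+RvE1 and KO obese+RvE1 mice ate the high fat diet and received 300 ng of RvE1 in the abdominal cavity on 4 consecutive days, with tissue taken on day 5. The other 4 groups, lean mice included, were injected with vehicle instead. Whole liver was sequenced, so each value is an average over all liver cell types.

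Recovered read totals lay between 15992525 and 43841120 per library, and the group medians ran from 19796716 in WT lean to 31121723 in WT obese+RvE1. Cmklr1 was at 9.72 to 22.6 normalized counts in KO lean and at 40.8 to 114 in WT lean, so the lean groups did not overlap for the targeted gene. All 5 hepatocyte markers (Alb, Apoa1, Ttr, Serpina1c and Cps1) were tested in every table and took 3.83% to 6.36% of the reads of each liver in the table of lean mice. In the main fits each p-value sets a group difference against the spread between mice, with every mouse taken as independent. No number that opens a mouse's identifier was shared between WT lean and KO lean, or between KO lean and KO obese. What that number stands for is not given by the labels. It was nested within the groups, so it could not enter those fits as a fixed term beside genotype or diet, and it was fitted as a random block, with the counts given below. The fitted correlation between mice sharing a number was 0.217 in KO lean vs WT lean and 0.237 in KO obese vs KO lean.

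Most proteins named Zfp carry zinc fingers of the C2H2 type, short modules that grip DNA and are repeated in tandem so that a protein can read a long stretch of bases. Many also carry a KRAB box, which recruits Trim28 (KAP1) and, through it, the histone methyltransferase Setdb1 and HP1 proteins to silence the bound locus. KRAB zinc finger genes sit in clusters that grew by duplication, and many of their proteins bind retroelements or imprinted regions.

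A KRAB box was scored by matching the longest open reading frame to a profile of 15 positions, and a match at 11 or more counted. It was found in 126 members, not in 114, and 2 members (Zfp862 and Zfp939) had no protein in the annotation used. The members with the KRAB box had a median of 12 C2H2 fingers and a median transcript GC content of 41.3%. Those without it had a median of 7 fingers and 50.3% GC, against a median GC of 49.7% over 12921 tested genes. At least 4 members lay together with gaps of no more than 500 kb in each of 14 stretches of the genome, called runs, and 109 members lay in them, 82 of those with the KRAB box.

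Per kilobase of the longest transcript, the highest level in lean liver belonged to Zfp36, with 1738 normalized counts per kb. Zfp36 encodes tristetraprolin, which binds AU-rich mRNAs and speeds their decay. Zfp445 followed with 596 and Zfp91 with 593 normalized counts per kb, and the median over all members was 68.1. Zfp445, a KRAB protein that keeps imprinted regions methylated, was thus among the most abundant transcripts of the family on this scale.

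Promoters of 4 members that the comparisons turned on are shown first, taken from RefSeq on GRCm38.p6 and written 5′ to 3′ on the strand of the gene from 250 bases before its start to 50 after it. Capitals mark matches on either strand to the CCAAT box, whose letters are the name, to the GC box, spelled GGGCGG, and to the core that ETS factors bind, spelled CGGAAG. A match on the opposite strand appears as the reverse complement. A pair of GC boxes of Zfp771 overlap.
Zfp97 (chr17:17121133-17121432, plus strand): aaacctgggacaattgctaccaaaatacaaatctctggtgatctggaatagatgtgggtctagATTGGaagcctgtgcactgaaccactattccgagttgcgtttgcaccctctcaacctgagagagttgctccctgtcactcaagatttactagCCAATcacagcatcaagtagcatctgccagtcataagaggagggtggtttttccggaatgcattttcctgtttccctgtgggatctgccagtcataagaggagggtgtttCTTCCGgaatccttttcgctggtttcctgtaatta
Zfp759 (chr13:67127978-67128277, plus strand): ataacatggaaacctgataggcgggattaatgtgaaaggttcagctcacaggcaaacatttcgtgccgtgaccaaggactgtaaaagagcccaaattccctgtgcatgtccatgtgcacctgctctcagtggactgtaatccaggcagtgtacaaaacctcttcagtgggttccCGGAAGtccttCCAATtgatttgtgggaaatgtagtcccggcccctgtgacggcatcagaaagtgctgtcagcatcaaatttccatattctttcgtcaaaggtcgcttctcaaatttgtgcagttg
Zfp445 (chr9:122865957-122866256, minus strand): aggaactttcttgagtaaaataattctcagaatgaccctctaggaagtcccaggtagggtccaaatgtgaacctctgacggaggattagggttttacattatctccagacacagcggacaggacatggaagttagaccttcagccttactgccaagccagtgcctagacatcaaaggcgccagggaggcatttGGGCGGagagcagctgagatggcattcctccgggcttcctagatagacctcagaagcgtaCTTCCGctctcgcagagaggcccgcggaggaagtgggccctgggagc
Zfp771 (chr7:127244276-127244575, plus strand): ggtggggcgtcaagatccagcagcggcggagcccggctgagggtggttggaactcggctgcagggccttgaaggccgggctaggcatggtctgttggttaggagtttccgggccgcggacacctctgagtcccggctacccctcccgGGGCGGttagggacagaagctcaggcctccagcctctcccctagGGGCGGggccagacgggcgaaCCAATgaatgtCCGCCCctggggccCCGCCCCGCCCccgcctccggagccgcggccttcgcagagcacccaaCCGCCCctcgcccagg

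These windows differed in composition. The Zfp771 promoter held 71.7% G and C, 25 CpG pairs and 6 GC boxes, whereas the Zfp97 promoter held 46.3% G and C, 5 CpG pairs and no GC box. The Zfp97 promoter also held the 25-base word atctgccagtcataagaggagggtg at positions 177 and 238 of the window. That word was present in 4 of 32851 mouse promoters, and Zfp97 was the 1 member among them. These promoters covered 198 of the members. Zfp960 had no promoter there, so whether it holds the word was not tested.

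RefSeq promoters were matched for 198 members, giving 245 promoter windows. CCAAT was present in 48.2% of the members' promoters against 37.4% of all promoters, and CGGAAG in 38% against 16.9%. Among members with the KRAB box CCAAT was in 53.1% and GGGCGG in 35.9% of promoters, and among those without it the shares were 41.7% and 60%. Over all promoters GGGCGG was in 35.7%. A match describes these letters and not a bound site.

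The first comparison asked how livers of lean mice differ with the loss of ChemR23. With limma and a BH-adjusted p under 0.1, 41 members were higher and 29 were lower in KO lean than in WT lean mice. These 70 made up 28.9% of the members, and 16.3% of the 13031 genes tested passed the same threshold. Members had to average at least 50 normalized counts in lean liver and tested genes at least 5. The part of these unlike floors in the shares, here and below, was not tested. Higher calls came to 16.9% of members against 8% of all genes, and lower calls to 12% against 8.3%. The Log2FC of the members had a median of 0.05, where Log2FC is the difference of mean log2(normalized count + 1) between the first group and the second. When libraries were scaled to equal read totals instead of the authors' size factors, the median Log2FC of all genes moved to -0.12 and the balance of calls turned, with 22 members higher and 40 lower. A correction for transcript length and GC left 37 higher and 14 lower. The share of all genes called was 16.5% under equal read totals and 12.2% after this correction.

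Zfp960 and Zfp97 had the largest increases. Zfp960 had a minimum of 301, a median of 630 and a maximum of 1074 normalized counts in KO lean, against 180, 254 and 309 in WT lean. Zfp97 had 403, 671 and 1169 in KO lean against 199, 318 and 373 in WT lean. All but 1 of the KO lean mice (6 of 7) lay above every WT lean mouse for Zfp960, and all 7 did for Zfp97. The Log2FC was 1.34 (SE 0.22, limma adjusted p = 0.0205) for Zfp960 and 1.25 (SE 0.21, adjusted p = 0.0244) for Zfp97.

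Both genes encode KRAB zinc finger proteins and lie side by side on chromosome 17 (GRCm38, plus strand), Zfp960 at chr17:17064113-17089628 and Zfp97 at chr17:17121415-17146831, with 31786 bases between them. Their open reading frames have 546 codons each, and the predicted proteins differ at 20 residues. Of the 50-base windows of the longest Zfp960 transcript, 83.3% were also in that of Zfp97. Reads could therefore be split between the pair by the counting, and the values of one gene are not independent of the other. The ratio of Zfp97 to Zfp960 was between 1.06 and 1.44 in the 14 lean livers.

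**Figure D1:**
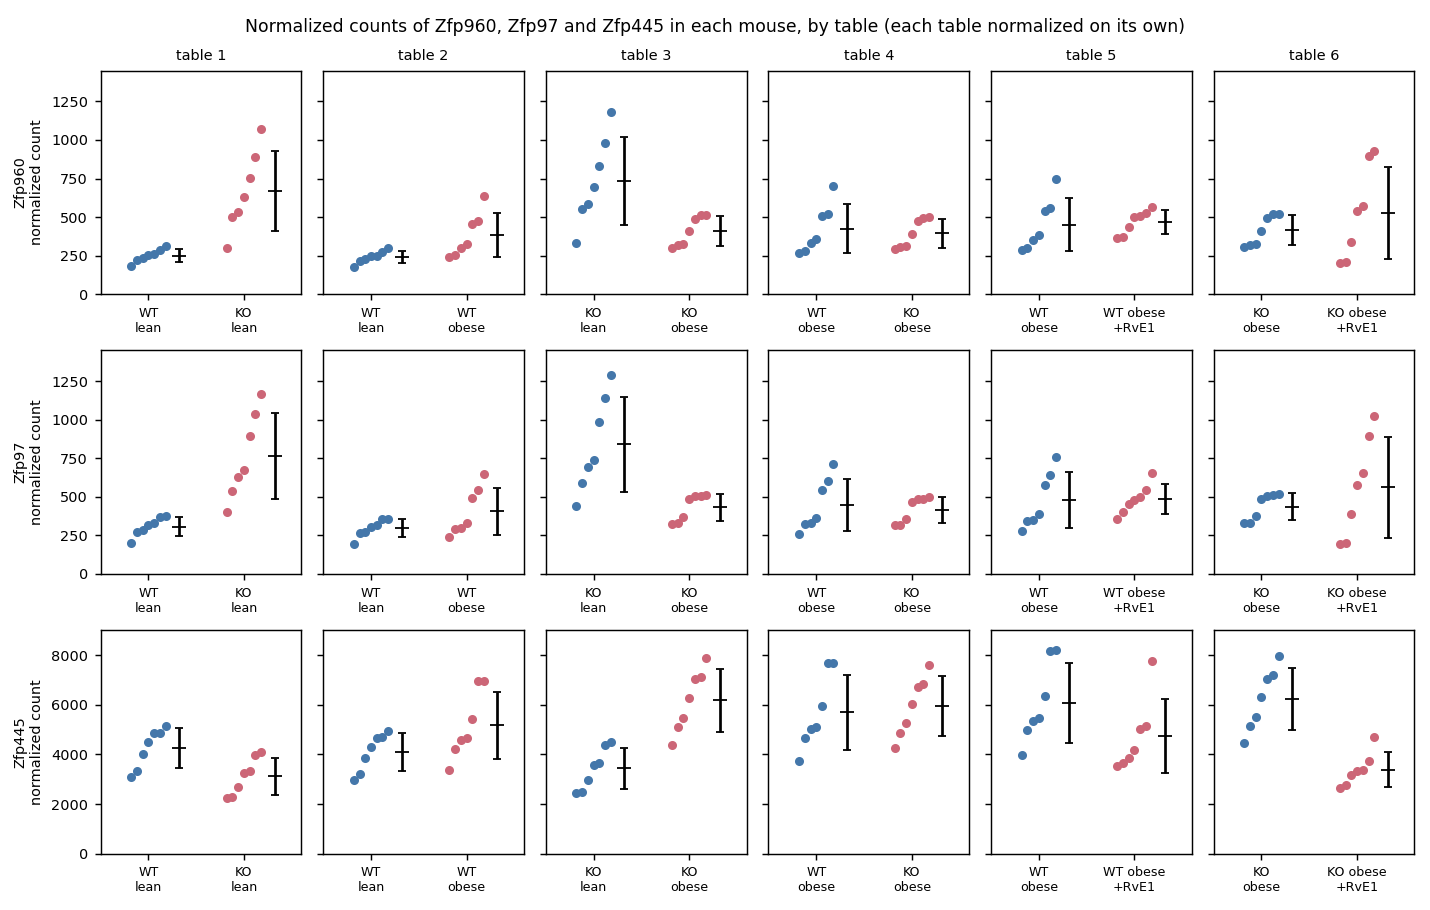
Normalized counts (vertical axis, from 0) of Zfp960, Zfp97 and Zfp445 in each mouse, with 1 column of panels per table, 7 points per group, and the mean with its SD as a bar beside the points. Zfp960 and Zfp97 spread from 301 to 1074 and from 403 to 1169 in KO lean and stayed at or below 309 and 373 in WT lean, and for Zfp445 6 of 7 KO obese+RvE1 mice lay below the lowest KO obese mouse at 4459.

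Zfp759, the next member by p, had 274, 451 and 506 normalized counts (minimum, median and maximum) in KO lean and 135, 234 and 303 in WT lean, and 6 of 7 KO lean mice lay above all WT lean mice. Its Log2FC was 0.90 (SE 0.17, limma adjusted p = 0.0302). Zfp52, near the lowest level among the members, had 44.8 to 79.9 in KO lean and 20 to 43.7 in WT lean, with no overlap. Its mean over both groups was 50.2 and every WT lean mouse lay below 50, so it became a member only through KO lean. Its increase and lack of overlap are thus tied to how members were chosen. The called increases ran from 0.38 to 1.34 on the Log2FC scale.

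Zfp146, a protein built almost wholly of zinc fingers, had the smallest p among lower members. Its counts were 310, 341 and 430 in KO lean and 457, 542 and 644 in WT lean, with no overlap and a Log2FC of -0.56 (SE 0.11, limma adjusted p = 0.0304). Zfp839 had 206, 266 and 323 in KO lean and 338, 388 and 435 in WT lean, again with no overlap and a Log2FC of -0.55 (adjusted p = 0.0308). Zfp27 had 118, 144 and 207 against 190, 204 and 234, and 6 of 7 KO lean mice lay below all WT lean mice (Log2FC -0.49, adjusted p = 0.0381). Zfp97, Zfp52, Zfp146 and Zfp839 were the 4 members whose lean groups did not overlap, 1.65% of members against 0.744% of all genes. Among them, Zfp52 became a member only through its KO lean values.

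Members with and without the KRAB box were counted separately, and the difference between these sets was not tested. Of the 126 with it, 35 were higher and 9 lower in KO lean, with a median Log2FC of 0.27 and 92 members above 0. Of the 114 without it, 6 were higher and 20 lower, with a median of -0.08. With the random block by identifier number both sets had 0 calls, with medians of 0.26 and -0.07. With 1 mouse left out the higher calls with the KRAB box ran from 16 to 52, with 18 without WT lean replicate 2 or 5, 20 without KO lean replicate 2, 23 without KO lean replicate 3, 16 without KO lean replicate 6 and 52 without KO lean replicate 5, and the median ran from 0.19 to 0.29. The lower calls without the KRAB box ran from 7 (without WT lean replicate 5) to 28 (without KO lean replicate 5), and were 9 without WT lean 2, KO lean 4 or KO lean 6, 10 without KO lean 2 and 12 without KO lean 3. Scaling to equal read totals gave 19 higher and 15 lower with the KRAB box and 3 higher and 25 lower without it, with medians of 0.15 and -0.19. After the correction for length and GC the counts were 30 and 3 with the KRAB box and 7 and 11 without it. Transcript GC content moved with the KRAB box, as given above, and its part beyond that correction was not tested. The median over KRAB members of each mouse's deviation ran from -0.00 to 0.45 in KO lean and from -0.26 to 0.13 in WT lean, so the groups overlapped.

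**Figure D2:**
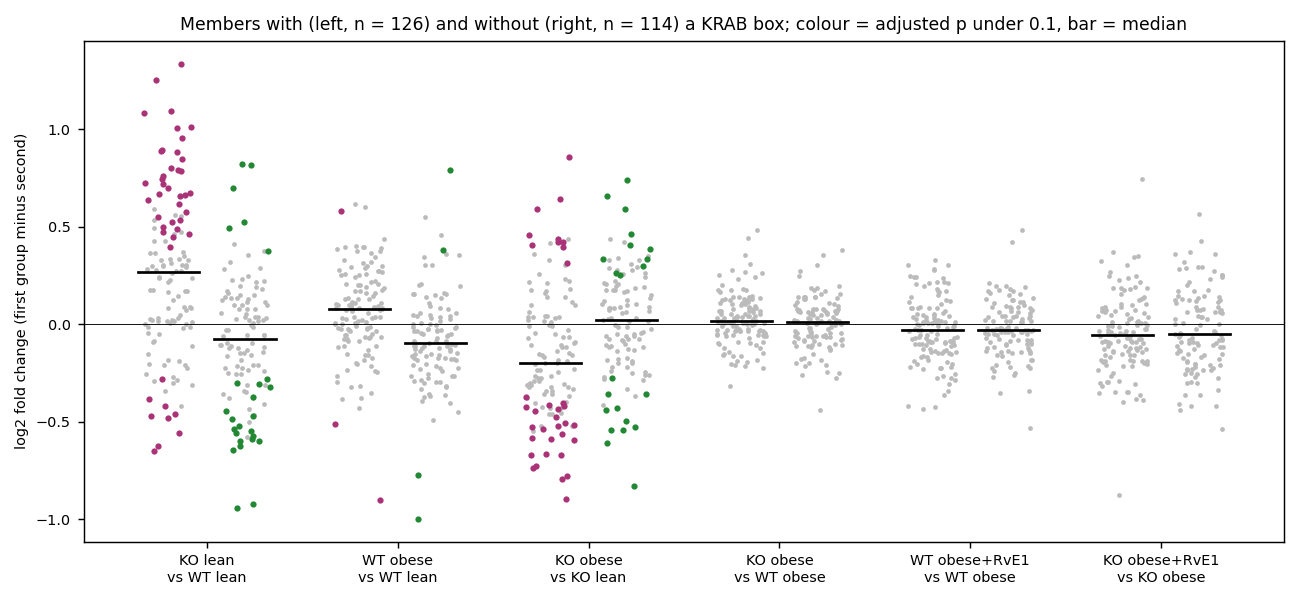
Log2FC of each member in the 6 comparisons (first group minus second), with members that have a KRAB box (n = 126) on the left and those without (n = 114) on the right of each pair, coloured where the limma adjusted p was below 0.1, and black bars at the medians. In KO lean vs WT lean the medians were 0.27 with and -0.08 without the KRAB box (0.15 and -0.19 under equal read totals), and in KO obese vs KO lean -0.20 and 0.02 (-0.05 and 0.17).

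The members in runs of neighbouring genes were followed next. The longest run lay at chr17:21008903-23564238 and held 18 members, 17 of them with the KRAB box. All 18 had a Log2FC above 0 in KO lean, 12 passed the test and the median was 0.48. These 18 include Zfp52, which became a member only through its KO lean values. A run of 14 members at chr13:67069399-67827002, which contains Zfp759, had 5 higher, 0 lower and a median of 0.47. Under equal read totals these runs had 4 and 3 members higher, 0 lower, and medians of 0.37 and 0.35. After the length and GC correction the chromosome 17 run had 7 higher, 16 of 18 above 0 and a median of 0.35. With 1 mouse left out it had 4 to 14 called, with 4 without WT lean replicate 2 or 5 or KO lean replicate 2, 3 or 6, 6 without KO lean replicate 4 and a median of 0.40 to 0.55. The chromosome 13 run had 3 to 10 called, with 3 without WT lean 2 or 5 or KO lean 2 or 6, 8 without WT lean 1 and 10 without KO lean 5. With the random block 0 members of either run were called, and the medians were 0.47 and 0.46. All 4 members of a run at chr10:81704825-82241280 (Zfp433, Zfp781, Zfp873 and Zfp938, named after their values were seen) were called higher, with a median Log2FC of 0.74. With the random block 0 members were called in this comparison, so these 4 calls were lost as well. This run was not counted under equal read totals, the length and GC correction or with 1 mouse left out.

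The 6 runs on chromosome 7 had medians from -0.35 to 0.20 and 1 member called higher among them. A run of 9 members at chr7:29768552-30169750, which contains Zfp27, Zfp146 and Zfp568, had 0 higher and 4 lower with a median of -0.31. A run of 5 members without a KRAB box at chr7:4915217-5038446 had 0 higher and 1 lower with a median of -0.24. A run of 6 members at chr7:12478293-12985714 had 1 higher and 0 lower with a median of 0.20. Neighbours share sequence and may share reads, so they are not independent of each other.

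**Figure D3:**
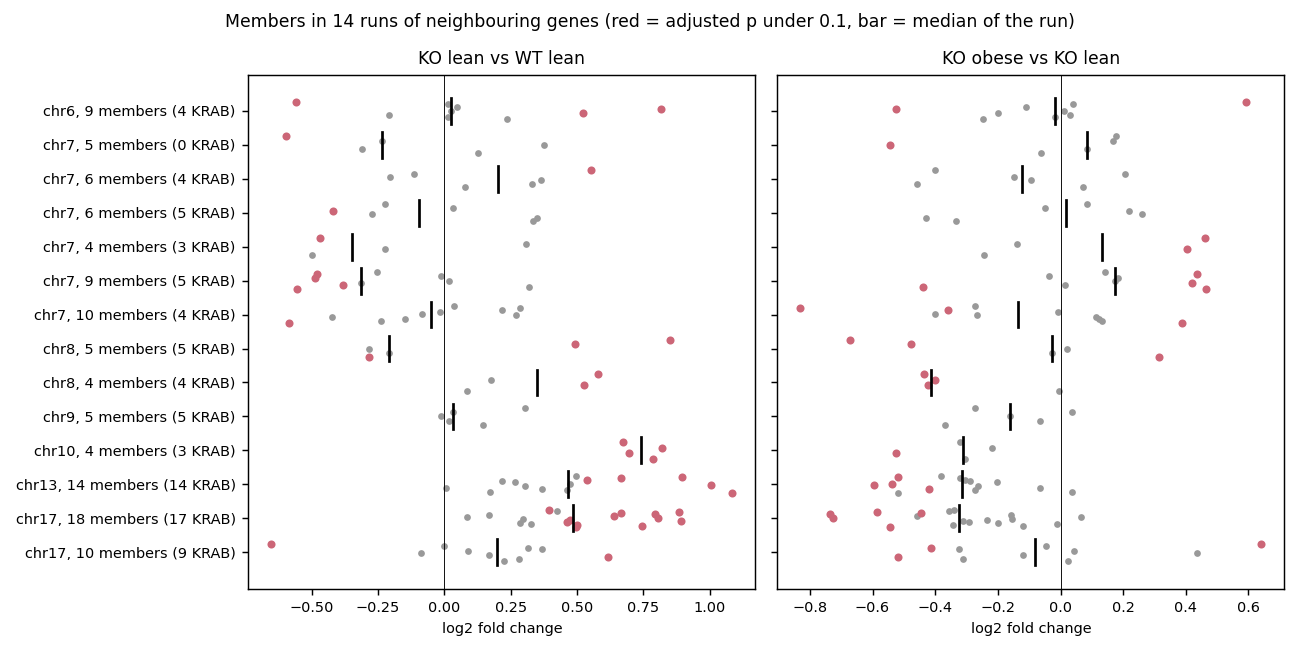
Log2FC (horizontal axis) of the 109 members in 14 runs, one line of points per run with its chromosome, its number of members and how many have a KRAB box, red where the limma adjusted p was below 0.1, black bars at the run medians. In KO lean vs WT lean the chromosome 17 run of 18 has its median at 0.48 and every point above 0 (17 of 18 under equal read totals), and in KO obese vs KO lean its median is at -0.33.

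Among members with a described role, those tied to imprinting or retroelements moved in both directions. Zfp445 had 2233, 3250 and 4083 normalized counts in KO lean and 3093, 4496 and 5143 in WT lean, with a Log2FC of -0.46 (SE 0.16, limma adjusted p = 0.0841), and the groups overlapped. Zfp568, which represses a placental transcript of Igf2, had 431, 475 and 568 against 523, 609 and 762 (Log2FC -0.38, adjusted p = 0.0431). Zfp932, a repressor of endogenous retroviruses, had 180, 369 and 501 against 140, 207 and 258 (Log2FC 0.73, adjusted p = 0.0445), and 6 of 7 KO lean mice lay above all WT lean mice. Zfp708, which binds another retroelement, and Zfp809, which silences murine leukemia virus, did not pass the test (adjusted p = 0.127 and 0.66).

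Of the 26 members with a described role 1 was higher and 4 lower in KO lean, 19.2% called against 16.3% of all genes, so the share was near that of all genes. Of the 10 of them known from chromatin and transcription, 0 were higher and 2 lower (20%). Zfp609, a partner of the cohesin loader Nipbl, had 200, 439 and 706 in KO lean and 629, 753 and 1066 in WT lean (Log2FC -0.92, SE 0.23, limma adjusted p = 0.0411). Zfp592, a member of a complex with Zmynd8, had 490, 712 and 934 against 863, 951 and 1170 (Log2FC -0.47, adjusted p = 0.055). In each case 5 of 7 KO lean mice lay below all WT lean mice. None of the 5 RNA-binding members, 3 members tied to fat cells or 3 tied to ubiquitin, SUMO or mitosis passed the test in KO lean vs WT lean. Zfp36 had 1398, 3275 and 5960 in KO lean and 2537, 5183 and 9080 in WT lean (adjusted p = 0.333). Zfp871, of no known role used here but among the 3 highest mean counts, was lower in KO lean, with 2032, 2554 and 5187 against 3062, 4654 and 6339 (Log2FC -0.65, adjusted p = 0.0663).

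The proteins that KRAB boxes recruit were measured beside the members. Of 20 tested genes of that silencing machinery, 0 were higher and 6 lower in KO lean (30% called), with a median Log2FC of -0.25. Over all genes 16.3% were called and 8.3% were lower. With the random block 0.023% of all genes were called in this comparison. Trim28 had 473 to 608 normalized counts in KO lean and 582 to 863 in WT lean (Log2FC -0.33, limma adjusted p = 0.0617). Cbx1, Cbx3 and Cbx5, which encode the HP1 proteins, were lower by Log2FC values of -0.41, -0.52 and -0.34, and Morc2a and Chd4 by -0.49 and -0.73. Zfp410, known as an activator of Chd4, had a Log2FC of 0.18 and did not pass the test (adjusted p = 0.235). Setdb1 did not pass it either (adjusted p = 0.413).

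Other markers moved with lean genotype. All 4 tested Kupffer cell markers (Clec4f, Vsig4, Cd5l and Timd4) were higher in KO lean, and their summed share of reads was 0.0182% to 0.0467% in KO lean and 0.00968% to 0.0237% in WT lean, with none at 0. More cells of a type and more RNA per cell cannot be told apart in bulk tissue. Of 3 tested lymphocyte markers 1 was higher (Ms4a1), 1 of 5 stellate cell markers was lower (Reln), 1 of 4 cholangiocyte markers was lower (Krt19), and 0 of 5 endothelial and 0 of 5 hepatocyte markers passed. The summed share of the hepatocyte markers was 4.48% ± 0.478 of reads in KO lean and 5.52% ± 0.570 in WT lean (SD, n = 7 each), with ranges that overlapped, from 3.83% to 5.06% and from 4.51% to 6.36%. The summed share of all members was 0.364% to 0.506% in KO lean and 0.421% to 0.556% in WT lean. The 2 genes of a nuclear RNA list, Malat1 among them, took 0.131% ± 0.040 of reads in KO lean and 0.191% ± 0.063 in WT lean (SD). Their ranges overlapped, from 0.0657% to 0.177% and from 0.101% to 0.303%. The part of these markers and RNAs in the members' differences was not tested.

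The number of lean calls moved with single libraries. Depending on which 1 mouse was left out, 30 to 103 of the 242 members were called, beside 4.39% to 27.2% of all genes. The count was 32 without WT lean replicate 2 (4.76% of all genes) and 30 without WT lean replicate 5 (4.39%). It was 37 without KO lean replicate 2 (7.65%), 45 without KO lean replicate 3 (8.71%), 40 without KO lean replicate 4 (6.76%) and 31 without KO lean replicate 6 (4.62%). With the number that opens the identifier as a random block, 0 members were called by limma, with 79 at an unadjusted p below 0.05 (104, or 43% of members against 26.8% of all genes, without the block) and adjusted p = 0.138 for Zfp960 and Zfp97 alike. Without the pair of mice numbered 26 (WT lean replicates 4 and 5), an alternative chosen after seeing the data, 0 members were called by limma and both genes had an adjusted p of 0.101 with Log2FC values of 1.32 and 1.30. Zfp445 lost its call without any of 8 mice (WT lean replicates 2, 3, 4 and 5 and KO lean replicates 2, 4, 6 and 7, adjusted p up to 0.176), Zfp871 without any of 7 (WT lean 2, 3 and 5 and KO lean 2, 4, 6 and 7, up to 0.139) and Zfp592 without any of 5 (WT lean 2 and 5 and KO lean 3, 4 and 6, up to 0.117). After the length and GC correction Zfp445, Zfp568, Zfp592 and Zfp871 had adjusted p-values of 0.166, 0.254, 0.142 and 0.131.

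The promoters were also counted by direction. Among 46 promoters of members called higher in KO lean, CCAAT was present in 69.6%, and among 28 promoters of members called lower it was in 32.1%, beside the 48.2% over all members. For GGGCGG these shares were 52.2% and 53.6%, and for CGGAAG 54.3% and 46.4%. The promoters belong to 37 and 20 genes, and with the random block 0 members were called. CCAAT also differed by KRAB box, at 53.1% with it and 41.7% without it. The part of the KRAB box in the split by direction was not tested. The Zfp97 window held CCAAT on both strands and the Zfp759 window held it once. The Zfp771 window held it once, and the Zfp445 window held none.

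Diet in KO mice was compared next. In KO obese vs KO lean, 21 members were higher and 36 lower at a limma adjusted p below 0.1, which was 23.6% of members against 24.1% of the 14213 genes tested. Higher calls came to 8.68% of members against 12% of all genes, and lower calls to 14.9% against 12.1%. In this main fit the share of members called was thus close to that of all genes. Their median Log2FC was -0.08 and that of all genes -0.00. Equal read totals moved the median of all genes to 0.14 and turned the balance to 32 members higher and 6 lower. The correction for length and GC gave 18 higher and 55 lower. These were 38 and 73 of 242 members, each beside 22.4% of all genes, so the closeness did not hold under these settings. The comparison shares the KO lean mice with the lean genotype comparison, so the values of each are given side by side without a count of overlap.

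Zfp771 and Zfp445 had the smallest p-values among members in each direction. Zfp771, without a KRAB box, had 429, 516 and 647 normalized counts in KO obese and 683, 799 and 1403 in KO lean, with no overlap. Zfp445 had 4376, 6254 and 7896 in KO obese and 2460, 3576 and 4482 in KO lean, and 6 of 7 KO obese mice lay above all KO lean mice. The Log2FC was -0.83 (SE 0.15, limma adjusted p = 0.005) for Zfp771 and 0.86 (SE 0.17, adjusted p = 0.00592) for Zfp445. Over 11 settings it ran from -0.87 to -0.43 for Zfp771 and from 0.71 to 1.00 for Zfp445. The GC-rich Zfp771 window printed above and the Zfp445 window belong to these genes.

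The Zfp960 and Zfp97 pair fell. Zfp97 had 322, 485 and 511 in KO obese and 442, 740 and 1288 in KO lean (Log2FC -0.90, SE 0.21, limma adjusted p = 0.0144). Zfp960 had 298, 410 and 513 against 331, 694 and 1183 (Log2FC -0.78, SE 0.23, adjusted p = 0.0354). For each gene 3 of 7 KO obese mice lay below all KO lean mice, so the groups overlapped. In KO lean vs WT lean the Log2FC of Zfp97 was 1.25 and that of Zfp960 1.34, on the same KO lean mice.

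Other lower members were Zfp707, with 581, 591 and 781 in KO obese and 730, 900 and 1123 in KO lean (Log2FC -0.56, limma adjusted p = 0.00645), and Zfp358, with 262, 299 and 337 against 364, 386 and 484 (Log2FC -0.43, adjusted p = 0.00993). Zfp771, Zfp358 and Zfp768 were the 3 members whose groups did not overlap, 1.24% of members against 2.1% of all genes. Higher members included Zfp60, with 238, 284 and 302 against 156, 195 and 286 (Log2FC 0.46, adjusted p = 0.0222). Zfp142 had 159, 198 and 245 against 98.9, 123 and 220 (Log2FC 0.59, adjusted p = 0.0237).

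Of the 26 members with a described role, 4 were higher and 0 lower in KO obese, 15.4% called against 24.1% of all genes. They were Zfp445, Zfp609 (Log2FC 0.74, limma adjusted p = 0.0685), Zfp326, a splicing regulator that acts at RNA polymerase II (Log2FC 0.40, adjusted p = 0.0712), and Zfp451, a SUMO ligase (Log2FC 0.30, adjusted p = 0.0791). Zfp871 was higher as well, with 3553, 4352 and 5772 in KO obese and 2239, 2813 and 5694 in KO lean (Log2FC 0.64, adjusted p = 0.0315). Zfp932, Zfp568, Zfp708 and Zfp809 did not pass. The calls were lost without any of 5 mice for Zfp609 (KO lean replicates 3, 4 and 6 and KO obese 3 and 7, adjusted p up to 0.144), 7 mice for Zfp326 (KO lean 2, 4 and 6 and KO obese 3, 5, 6 and 7, up to 0.144) and 8 for Zfp451 (KO lean 2, 4, 6 and 7 and KO obese 3, 5, 6 and 7, up to 0.166).

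**Figure D4:**
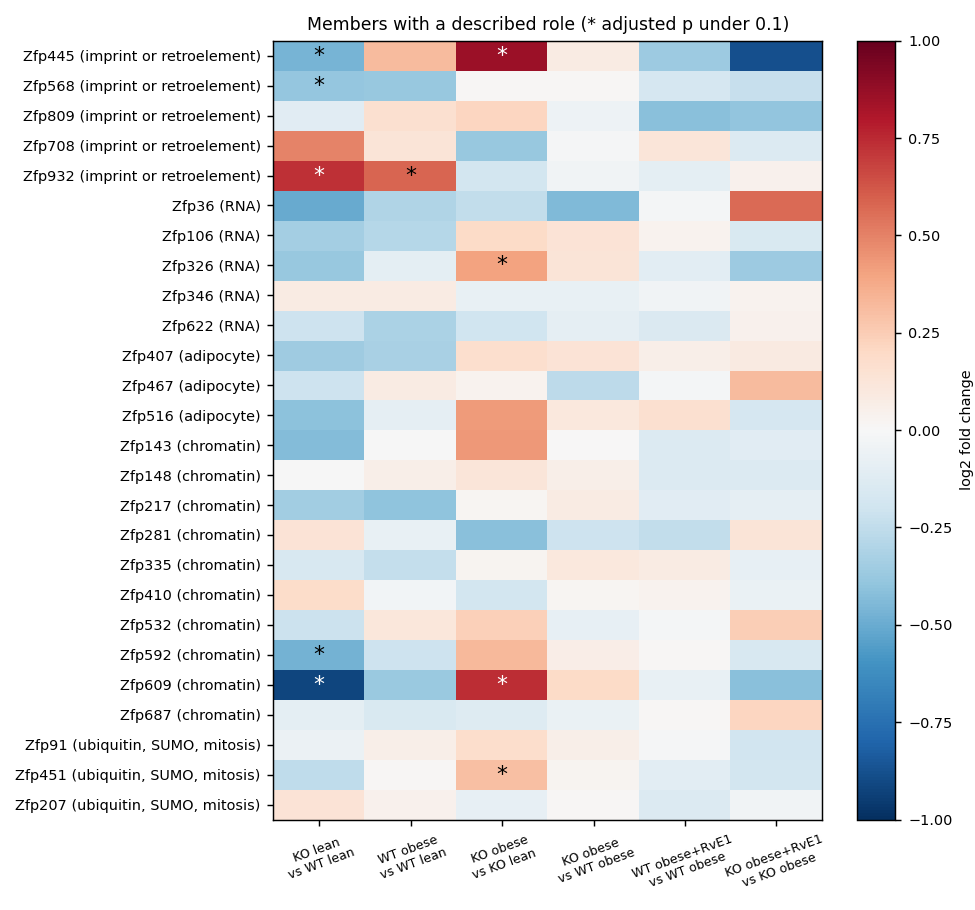
Log2FC (colour, from -1 in blue to 1 in red) of the 26 members with a described role in the 6 comparisons, with an asterisk where the limma adjusted p was below 0.1. Zfp445 is at -0.46 in KO lean vs WT lean, 0.86 in KO obese vs KO lean and -0.88, not called, in KO obese+RvE1 vs KO obese. The values -0.46 and 0.86 share the KO lean mice, and 0.86 and -0.88 share the KO obese mice.

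Of members with the KRAB box, 10 were higher and 25 lower in KO obese, with a median Log2FC of -0.20, and of those without it 11 were higher and 11 lower, with a median of 0.02. Under equal read totals this became 13 higher and 3 lower with the KRAB box and 19 and 3 without it, with medians of -0.05 and 0.17. After the length and GC correction it was 9 higher and 40 lower with the KRAB box and 9 and 15 without it, and with the random block 1 and 3 with it and 0 and 5 without it. With 1 mouse left out the lower calls with the KRAB box ran from 11 to 43, with 15 without KO lean replicate 2, 11 without KO lean replicate 3 or 6, 16 without KO lean replicate 4 or KO obese replicate 4, 12 without KO obese replicate 7 and 43 without KO lean replicate 5. The chromosome 17 run of 18 members had 0 higher and 5 lower with a median of -0.33, and the chromosome 13 run of 14 had 0 higher and 4 lower with a median of -0.31. Under equal read totals these runs had 2 and 0 lower, after the length and GC correction 8 and 8, and with the random block 1 and 0. Leaving out 1 mouse gave 3 lower in the chromosome 17 run without KO lean 2, 3, 6 or 7 or KO obese 4 or 7 and 9 without KO lean 5, and in the chromosome 13 run 1 without KO lean 3 or 6 or KO obese 7 and 2 without KO lean 2 or KO obese 2 or 4. Of 21 silencing genes 6 were higher and 0 lower, 28.6% called against 24.1% of all genes. Higher calls came to 12% of all genes. All 4 Kupffer markers were lower, with a summed share of 0.0112% to 0.0207% in KO obese and 0.018% to 0.0459% in KO lean, and 2 of 5 endothelial markers were lower (Clec4g and Kdr). At an unadjusted p below 0.05 there were 78 members, 32.2% against 32% of all genes. The nuclear RNA list had 1 of its 2 genes higher, Malat1 (Log2FC 0.78, limma adjusted p = 0.0147). The part of these in the members' differences was not tested. Without 1 mouse the count of members called ran from 32 to 89, beside 15.6% to 31.7% of all genes. It was 37 without KO lean replicate 3 (20.9%), 89 without KO lean replicate 5 (31.7%), 32 without KO lean replicate 6 (15.7%) and 33 without KO obese replicate 7 (15.6%). With the random block the count was 9 of 242 members (1 higher and 8 lower), beside 7.44% of all genes. Zfp960, Zfp60, Zfp142 and Zfp871 then had limma adjusted p-values of 0.138, 0.105, 0.111 and 0.108. Zfp609, Zfp326 and Zfp451 had 0.231, 0.205 and 0.205 with the block, and Zfp451 had 0.561 after the length and GC correction. Under equal read totals Zfp960 and Zfp358 had 0.103 and 0.154.

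Diet in WT mice gave fewer calls. In WT obese vs WT lean, 3 members were higher and 4 lower, 2.89% of members against 6.27% of the 14012 genes tested. In single directions, 3.65% of all genes were higher and 2.61% lower. At an unadjusted p below 0.05 there were 33 members, 13.6% against 18.2% of all genes. The median Log2FC was 0.08 for members with the KRAB box and -0.10 for those without.

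Zfp276 was the highest call, with 651, 850 and 1679 normalized counts in WT obese and 477, 518 and 613 in WT lean, and no overlap (Log2FC 0.79, SE 0.17, limma adjusted p = 0.0187). Zfp750, known for its role in skin differentiation, had 134, 349 and 411 in WT obese and 448, 557 and 820 in WT lean, also with no overlap (Log2FC -0.999, SE 0.24, adjusted p = 0.0285). Zfp276, Zfp750 and Zfp426 were the 3 members without overlap, 1.24% of members against 1.36% of all genes. Zfp9 had 37.2, 57.2 and 62.5 against 55.8, 92.3 and 174 (Log2FC -0.90, adjusted p = 0.0305).

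Zfp707 was lower in WT obese, with 501, 605 and 658 against 589, 852 and 1166 (Log2FC -0.51, limma adjusted p = 0.0519), and Zfp395 had a Log2FC of -0.77 (adjusted p = 0.0952). This Zfp395 call was not followed under other settings or with 1 mouse left out. Zfp932 was higher, with 173, 294 and 419 against 135, 200 and 248 (Log2FC 0.58, adjusted p = 0.0899), and Zfp512 had a Log2FC of 0.38 (adjusted p = 0.092). Zfp960 had 243, 325 and 638 against 174, 244 and 297 (Log2FC 0.62, adjusted p = 0.104) and did not pass. It did pass by DESeq2 (adjusted p = 0.0282) and edgeR (0.0762). With limma it also passed under TMM scaling (0.0998), the length and GC correction (0.0891) and library quality weights (0.0427). Under equal read totals and with the random block it did not. Zfp445 (Log2FC 0.32, adjusted p = 0.337) did not pass either. The count of members called was 16 without WT obese replicate 1 (9.18% of all genes) and 3 without WT obese replicate 3 (4.32%). It was 4 without WT obese replicate 4 (5.71%), WT obese replicate 6 (3.74%), WT lean replicate 1 (4.35%) or WT lean replicate 2 (4.41%). Leaving out any of 10 mice ended the call of Zfp512 (WT lean 1, 2, 3, 4 and 6 and WT obese 3 to 7) and any of 12 that of Zfp932 (all but WT lean 6 and WT obese 1), and Zfp707 lost its call without WT lean 1 (adjusted p = 0.103) or WT obese 3 (adjusted p = 0.104). Under equal read totals Zfp9, Zfp707, Zfp932 and Zfp512 had adjusted p-values of 0.107, 0.257, 0.139 and 0.266, and with the random block 0.115, 0.156, 0.318 and 0.258.

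Whether diet acted differently by genotype was tested as the difference of the diet Log2FC values, KO minus WT. By limma 0 members passed, with 61 at an unadjusted p below 0.05 (25.2% of members against 18.3% of 13941 genes). By limma 0.00717% of all genes passed. By edgeR 0 members passed and by DESeq2 28, and DESeq2 called 6.67% of all genes here. Zfp960 had a diet Log2FC of 0.62 in WT and -0.78 in KO, a difference of -1.40 (SE 0.32, adjusted p = 0.139). Zfp444 had 0.20 in WT and -0.61 in KO, a difference of -0.81 (SE 0.19, adjusted p = 0.139). Zfp97 differed by -1.29 (SE 0.32, adjusted p = 0.141) and Zfp445 by 0.54 (SE 0.24, adjusted p = 0.231). These are limma values. The DESeq2 adjusted p-values were 0.00658 for Zfp960, 0.00748 for Zfp444 and 0.00997 for Zfp97. Apart from DESeq2 and library quality weights, no setting called a member here.

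Between the obese genotypes no member was called. In KO obese vs WT obese limma, edgeR and DESeq2 each gave 0, with 2 members at an unadjusted p below 0.05 by limma (0.826% against 2.25% of all genes), and 0.0141% of 14162 genes passed the adjusted threshold. The members with the smallest p were Zfp770, with 295, 400 and 470 in KO obese and 272, 332 and 354 in WT obese (Log2FC 0.25, adjusted p = 1), and Zfp655 (Log2FC 0.30, adjusted p = 1). Zfp960 had 290, 393 and 498 in KO obese and 266, 360 and 702 in WT obese (Log2FC -0.05, SE 0.21). Zfp445 had 4261, 6030 and 7613 against 3733, 5106 and 7688 (Log2FC 0.08, SE 0.17). On simulated counts for this comparison, 44.8% of 1.5-fold changes and 88.1% of 2-fold changes were recovered.

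RvE1 in WT obese mice gave 0 members by limma, edgeR and DESeq2, with 15 at an unadjusted p below 0.05 (6.2% of members against 6.08% of all genes). All 15 were lower, against 3.6% of all genes, and 0% of 13085 genes passed. Zfp809 had the smallest p, with 648, 688 and 717 normalized counts in WT obese+RvE1 and 624, 911 and 1211 in WT obese (Log2FC -0.42, SE 0.12, limma adjusted p = 0.772). The treated mice lay within the range of the untreated. Zfp236 had 485, 527 and 595 against 534, 673 and 746 (Log2FC -0.26, adjusted p = 0.772). Zfp445 had 3540, 4189 and 7775 against 3982, 5455 and 8212 (Log2FC -0.36, SE 0.19).

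RvE1 in KO obese mice gave 0 members by limma and edgeR and 1 by DESeq2, with 21 at an unadjusted p below 0.05 (8.68% against 8.3% of all genes). Of these 2 were higher and 19 lower (0.826% against 3.45% and 7.85% against 4.85%), and 0% of 14207 genes passed by limma. The 1 member called by DESeq2, which called 0.12% of all genes here, was Zfp445. Its counts were 2654, 3323 and 4713 in KO obese+RvE1 and 4459, 6315 and 7969 in KO obese, and 6 of 7 treated mice lay below all untreated mice. The same KO obese mice gave the Log2FC of 0.86 against KO lean, so these differences are not independent. The Log2FC was -0.88 (SE 0.15, limma unadjusted p = 2.44e-05, adjusted p = 0.346), and the DESeq2 adjusted p was 0.000499. With 1 mouse left out the limma adjusted p ran from 0.0758, without KO obese+RvE1 replicate 6, to 0.861, and it was below 0.1 in 1 of the 14 fits.

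Zfp395 was the 1 member whose groups did not overlap, 0.413% of members against 0.0211% of all genes. It had 939, 1000 and 1526 in KO obese+RvE1 and 662, 787 and 919 in KO obese (Log2FC 0.43, SE 0.11, limma adjusted p = 0.557). Zfp960 was wide after RvE1, with 204, 539 and 929 against 304, 412 and 519, and 4 treated mice lay above and 2 below all untreated mice (Log2FC 0.15, SE 0.33). Zfp97 showed the same spread, from 192 to 1023.

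The difference of the RvE1 Log2FC values, KO minus WT, gave 0 members by limma, edgeR and DESeq2, with 4 at an unadjusted p below 0.05 (1.65% against 2.39% of 13075 genes), and 0% of those genes passed the adjusted threshold by limma. Zfp750 had 0.42 in WT and -0.44 in KO, a difference of -0.86 (SE 0.29, unadjusted p = 0.00628, adjusted p = 1). Zfp692 differed by 0.56 (SE 0.24) and Zfp445 by -0.51 (SE 0.25, unadjusted p = 0.0495). The Zfp445 decrease after RvE1 in KO obese mice was therefore not shown to differ from the value in WT obese mice.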

How the data were processed

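The authors made stranded paired-end libraries from whole liver, aligned reads to mm10 with Bowtie2, counted them per gene with featureCounts (Subread) and scaled the counts with DESeq2 size factors estimated separately for each pair of groups. For the strand setting and annotation version, nothing is given in the sources used here, and the labels name polyA RNA while the protocol names total RNA. The deposited signal values are these normalized counts, 1 column per mouse, in 6 tables of 14 mice, and groups were compared only within a table. Their steps gave whole reads for 100.0% of values (tolerance 0.1 read), from which depth and the count tests came. The members and gene lists were chosen with earlier results of these data known.

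Log2(normalized count + 1) was fitted with limma 3.58.1 (R 4.3.3, trend, two-sided) over genes with a mean of at least 5, with Benjamini-Hochberg adjustment over all of them and a threshold of 0.1. Because normalized values were deposited, this log-scale test stands in place of DESeq2, which the study ran. Genotype differences in diet or RvE1 effects were contrasts of Log2FC values, each formed within its own table. Alternatives were edgeR 4.0.16 and DESeq2 1.42.0 on recovered reads, TMM scaling, equal read totals, pseudocounts of 0.5 and 4, no filter, a length and GC correction, library quality weights, a random block by identifier number, an adjusted p below 0.05, a fold above 1.5 and leaving out each mouse. Genes were named by rule: Zfp960, Zfp97 and Zfp445, the 3 members with the smallest p called in each direction of a comparison (the 2 smallest where none was called), the 3 highest and 3 lowest mean counts, and members of the role lists. Transcripts and proteins came from GENCODE on GRCm38. All 242 members were matched, and 19467 of 19778 gene names (98.4%). Tested on simulated data for KO lean vs WT lean (13031 genes, 200 changed), the limma step recovered 35.8% of 1.5-fold, 88.1% of 2-fold and 98.5% of 3-fold changes. Simulated mice were drawn as independent, without a shared identifier number. The lymphocyte markers of KO obese vs KO lean are not reported here.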

Additional observations from a re-analysis of the deposited data

Results flagged for a closer look

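Among 78 sets of 7 mice for the named members, 5 had 1 mouse far from the other 6, and chance alone gives about 1 in 20 such sets. In KO lean, the highest mouse for Zfp142 was at 219.5 normalized counts with the next at 135.5, the highest for Zfp27 at 206.7 with the next at 153.8, and the highest for Zfp871 at 5187 with the next at 3070. In KO obese+RvE1, the highest mouse for Zfp395 was at 1526 with the next at 1020. In WT obese+RvE1, the highest mouse for Zfp445 was at 7775 with the next at 5156.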

How the results depend on the processing

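Pseudocounts of 0.5 and 4, TMM scaling, no filter, the length and GC correction and edgeR kept every count of called members within 1.5 times its value, and kept 0 where it was 0. Shares of all genes are given in brackets. In WT obese vs WT lean (7 members) the count was 3 at an adjusted p below 0.05 (3.3%) and 4 with a fold above 1.5 (3.8%). It was 2 under equal read totals (3.64%), 2 with the random block (1.99%), 18 with quality weights (11.5%) and 14 by DESeq2 (9.76%). In KO obese vs KO lean (57) it was 31 at the stricter p (14.5%), 19 with the fold (10.4%), 94 with the weights (40.4%) and 9 with the block (7.44%). In KO lean vs WT lean (70) it was 34 (5.51%), 37 (6.65%) and 111 (33%), and 0 with the block (0.023%). An alternative added after seeing the data leaves out all mice sharing an identifier number. With it the count was 2 without mice numbered 9 (0.115%), 42 without 14 (10.4%), 3 without 21 (0.246%) and 0 without 26 (0.0614%). For the other numbers it was 65 to 82 (14.8% to 22.8%). Zfp445 was called in KO obese+RvE1 vs KO obese with the weights (1 member, and 1 gene in all) and by DESeq2 (1 member of 17 genes). The diet by genotype difference gave 58 with the weights (18.4% of all genes) and 28 by DESeq2 (6.67%). Zfp960, Zfp444 and Zfp97 passed in both, with limma adjusted p-values of 0.00984, 0.00902 and 0.0117 with the weights. Zfp445 passed with the weights (limma adjusted p = 0.0482). The cause of these shifts was not tested. With 1 mouse left out the counts ran from 3 to 16, 32 to 89, 30 to 103 and, for RvE1 in KO obese, 0 to 1, in the order above, and stayed 0 to 0 for KO obese vs WT obese and WT obese+RvE1 vs WT obese. For the diet comparisons in WT and KO and the lean genotype comparison, the shares of all genes ran from 3.74% to 9.18%, 15.6% to 31.7% and 4.39% to 27.2%.

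Of 590 values of named members under other settings, 534 kept direction and call, 14 gained the call, 39 lost it and 3 turned sign, none of them called. These were Zfp97 in WT obese+RvE1 vs WT obese with the weights (-0.057), and Zfp960 (-0.046) and Zfp97 (-0.063) in the RvE1 by genotype difference with the block. Of 700 values with 1 mouse left out, 16 turned sign, all uncalled values of Zfp960, Zfp97 or Zfp445. Their ranges were -0.15 to 0.081 for Zfp960, -0.15 to 0.090 for Zfp97 and -0.013 to 0.16 for Zfp445 in KO obese vs WT obese, -0.028 to 0.21 for Zfp97 in WT obese+RvE1 vs WT obese, and -0.022 to 0.34 for Zfp960 and -0.054 to 0.35 for Zfp97 in KO obese+RvE1 vs KO obese. No paired analysis was possible because the labels give no replicate numbers, and groups compared shared only 1 identifier number, 23, held by 1 KO obese mouse and 2 KO obese+RvE1 mice, which the random block took in. In simulations at these depths, with this spread, 7 mice per group and 200 changed genes, 50.7% or fewer of 1.5-fold changes were recovered. Which of these set the limit was not tested.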
